A study of Mus musculus with 24 samples.

Results

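Saline-treated control tumours were compared between 2 sampling times, 96 h and 24 h, to describe how the sorted cells of undepleted tumours differed over the days of the experiment. All libraries labelled saline at 24 h (4 libraries) and at 96 h (4 libraries) were taken, 8 of the 24 libraries of the study, and every gene was tested. The 4 saline libraries of 48 h were used as a check only. The study profiled mouse tumours after depletion of Lgr5+ cells with diphtheria toxin (DT), and saline was its control treatment. Lgr5 is a surface receptor that marks stem cells of the intestine. All groups share the source small intestine, the genotype recorded as AKVPL and the sort recorded as bulk, and EpCAM, a surface protein of epithelia, is part of every sample name. The groups used are therefore AKVPL saline 24 h, AKVPL saline 96 h, AKVPL saline 48 h and, for the last test, AKVPL DT 24 h and AKVPL DT 96 h. The labels do not spell out the alleles behind AKVPL, the element that makes Lgr5+ cells sensitive to the toxin, the age or number of the mice, or whether a library is 1 animal or a pool. Since nothing says that the libraries of a group came from separate animals, each p-value here reflects only how much these libraries varied, and part of that variation may be technical. The sample names record no batch that spans the times. Time therefore cannot be told apart from the collection, sort or library preparation of each group.

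A tumour epithelium contains dividing stem-like cells and differentiated secretory cells such as goblet, Paneth and enteroendocrine cells, and it lies among vessels, fibroblasts and immune cells. Sorted epithelial fractions can also hold RNA of those neighbours. The immediate early genes, among them transcription factors of the Fos, Jun and Egr families, respond to signals within minutes, and the heat shock genes encode chaperones that refold damaged proteins.

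Total counts ran from 13126002 to 14644021 per library at 24 h, from 15640541 to 27626509 at 48 h and from 14401736 to 24202680 at 96 h. Lgr5, the gene whose cells the toxin targets, held 177, 208, 191 and 215 CPM (counts per 1000000 counts of the library, scaled by TMM) in saline replicates 1 to 4 of 24 h, and 168, 180.0, 149.9 and 180.0 CPM in those of 96 h, so that the groups overlapped (log2 fold change -0.22 ± 0.076, SE; adjusted p = 0.0974, edgeR quasi-likelihood test). None of 14 epithelial identity genes tested passed the test (median log2 fold change -0.08), though Ocln, a tight-junction protein, did without replicate 1 of 96 h (adjusted p = 0.037). Their summed level was 9559 to 10378 CPM at 24 h and 9637 to 10251 CPM at 96 h. Epcam itself held 1486 to 1631 CPM and 1367 to 1515 CPM. Markers of other cells were present too, some at sums as high, although CPM is not per length and sums of different lists are not compared. The 14 fibroblast markers summed to 10712 to 12668 and 10387 to 25193 CPM, the 24 endothelial markers to 784 to 996 and 1089 to 1773 CPM, and the 23 macrophage and monocyte markers to 505 to 713 and 229 to 441 CPM. T and NK cell markers summed to 2.14 to 3.85 CPM at 24 h and 1.16 to 2.34 CPM at 96 h, and B and plasma cell markers to 1.76 to 2.46 and 1.23 to 2.14 CPM. Of these 8 libraries, 1 stood apart before any test. On the first principal component of the 12 saline libraries (34% of the variance), replicate 1 of 96 h lay at -9.53, against 17.5 to 38.9 for the other 3 libraries of 96 h and -27.0 to -20.6 for those of 24 h. Replicate 2 of 96 h lay at the far end, at 38.9. For several gene lists the counts are given with and without replicate 1 of 96 h, but not for every result that rests on it.

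Of 16785 genes tested, 367 were higher (2.19%) and 390 lower (2.32%), together 4.51%, at 96 h than at 24 h by edgeR's quasi-likelihood test with a Benjamini-Hochberg adjusted p under 0.05. Of these, 146 were higher and 62 lower by at least 2-fold. The median log2 fold change over all genes was -0.01. Of the 757, 86 were on the 39 gene lists used below (47 higher and 39 lower), and most calls were therefore of genes on no list. The lists with most calls held heat shock, macrophage and goblet cell genes among the lower genes, and immediate early, endothelial and hypoxia genes among the higher ones. Most calls lay close to the threshold, with a median adjusted p of 0.0339, and 43 of the 367 and 35 of the 390 were called in every one of the 8 fits that left out 1 library of the 2 times. Without replicate 1 of 96 h, 1279 genes were higher (7.54%) and 607 lower (3.58%), among them 357 of the 367 and 356 of the 390. Without replicate 3 of 24 h the counts were 317 and 322. The fits without replicate 1, 2 or 4 of 24 h, or without replicate 2, 3 or 4 of 96 h, called 49 to 136 genes higher and 51 to 155 lower.

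**Figure D1:**
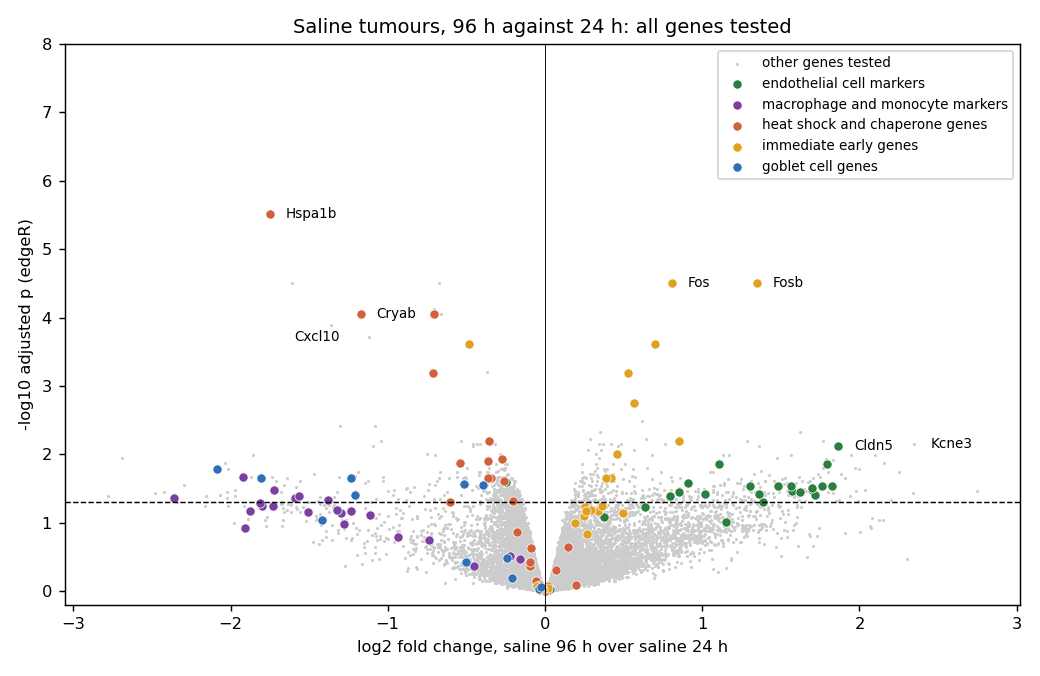
Every gene tested, with the log2 fold change of saline 96 h over saline 24 h on the x axis and -log10 of the edgeR adjusted p on the y axis; 5 gene lists are coloured and the dashed line marks an adjusted p of 0.05. Heat shock genes lie at the upper left with Hspa1b at the top, immediate early genes at the upper right, endothelial markers on the right just above the line, and macrophage markers on the left around it.

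Heat shock chaperones fell, and 1 of them, Hspa1b, had the smallest p-value of the comparison. Of 28 heat shock and chaperone genes, all tested, 13 fell, 15 did not pass the test and none rose, against 2.32% lower among all genes; over the list the median log2 fold change was -0.14. Hspa1b, which encodes the inducible chaperone HSP70 (chromosome 17, 34956429 to 34959238 on GRCm38), held 589, 533, 609.7 and 457 CPM in replicates 1 to 4 of 24 h and 175, 159, 165 and 152 CPM in those of 96 h. The groups were far apart, and all 4 libraries of 96 h were close together. Its mean fell from 547 ± 68.3 to 163 ± 9.98 CPM (SD, n = 4 each; log2 fold change -1.75 ± 0.099, edgeR adjusted p = 3.03e-06).

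The promoters of 4 heat shock genes were searched for a pair of inverted repeats, GAANNTTC or TTCNNGAA. Such repeats are part of the element by which heat shock factor is known to bind. Each form is its own reverse complement, so both strands are covered, and the 2 forms may overlap. The 4 genes were picked by name as examples. All of them hold the pair, and they do not stand for the list. The 150 bases before the annotated start are printed 5′ to 3′ on the gene's strand, from RefSeq on GRCm38.p6, with the pair in capitals. They are shown for Hspa1b, which fell, and its near-identical neighbour Hspa1a, which was not called, and for Hspe1 and Dnaja1, which both fell.
Hspa1b, chr17:34959239-34959388, minus strand: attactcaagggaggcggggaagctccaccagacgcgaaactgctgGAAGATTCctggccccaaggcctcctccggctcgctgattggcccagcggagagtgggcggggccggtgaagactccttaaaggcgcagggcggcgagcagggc
Hspa1a, chr17:34972157-34972306, minus strand: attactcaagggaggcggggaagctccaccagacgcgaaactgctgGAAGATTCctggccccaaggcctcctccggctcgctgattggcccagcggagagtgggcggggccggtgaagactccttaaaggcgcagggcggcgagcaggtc
Hspe1, chr1:55087998-55088147, plus strand: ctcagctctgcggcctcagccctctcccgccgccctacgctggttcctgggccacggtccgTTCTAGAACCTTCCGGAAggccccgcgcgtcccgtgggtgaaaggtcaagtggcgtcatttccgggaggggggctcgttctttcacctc
Dnaja1, chr4:40722318-40722467, plus strand: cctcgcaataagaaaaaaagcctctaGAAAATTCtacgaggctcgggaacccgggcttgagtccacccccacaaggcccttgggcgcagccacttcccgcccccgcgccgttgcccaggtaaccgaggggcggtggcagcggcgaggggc
The windows of Hspa1b and Hspa1a were the same at 149 of 150 positions and hold the pair at the same place, starting 104 bases before the start. Hspe1 holds 3 overlapping pairs starting at -89, -84 and -79, and Dnaja1 holds 1 at -124. Counts of genes used the 250 bases before each start. The pair was there in 9 of the 21 listed genes with a window in the table, in 6 of the 9 that fell and in 3 of the other 12, against 14.5% of all 27025 genes and 12.9% of all 32536 distinct windows of 250 bases. A match describes letters only.

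Hspa1a held 30, 44.6, 28.7 and 28.9 CPM at 24 h and 19.4, 46.8, 33 and 31.2 CPM at 96 h, and the groups overlapped (log2 fold change -0.03 ± 0.34, adjusted p = 0.97). Only reads that aligned uniquely were counted, per the file headers, and the reads of the 2 copies are nearly alike, so how the counts divide between Hspa1a and Hspa1b is uncertain. The HSP70 partners moved with Hspa1b. Dnajb1, the J-domain protein that delivers clients to HSP70, held 656, 546, 679 and 509 CPM at 24 h and 375, 351, 392 and 339 CPM at 96 h, without overlap (log2 fold change -0.71 ± 0.083, adjusted p = 0.000637). Dnajb4, a J-domain protein of the same family, held 62.8 to 75.4 CPM and 40.2 to 44.1 CPM (-0.71 ± 0.067, adjusted p = 8.86e-05). Cryab, a small heat shock protein that holds unfolded proteins, went from 41.5, 38.2, 36 and 28.2 CPM to 16.8, 13.6, 17.5 and 15.8 CPM, again with every library of 96 h below every library of 24 h (-1.17 ± 0.11, adjusted p = 8.86e-05). Further members fell, with log2 fold changes nearer 0. Hspd1, the chaperonin of mitochondria, held 54.9 to 59.9 CPM and 43.5 to 48.5 CPM (-0.36 ± 0.054, adjusted p = 0.00639). Its partner Hspe1, whose gene is known to lie head to head with it, held 42 to 45.4 CPM and 31.1 to 36.9 CPM (-0.36 ± 0.074, adjusted p = 0.0225). Dnaja1 held 76.2 to 93.1 and 64.8 to 70.2 CPM (-0.36 ± 0.063, adjusted p = 0.0125). Hsp90ab1, the constitutive cytosolic HSP90, held 4241, 4128, 3906 and 4208 CPM at 24 h and 3375, 3465, 3479.8 and 3316 CPM at 96 h (-0.27 ± 0.047, adjusted p = 0.0117), the third largest loss in CPM under the naming rule. The other members that fell were Bag3, Hsp90aa1, Hspa8, Hsph1 and Ubb, with log2 fold changes of -0.54, -0.34, -0.26, -0.61 and -0.21. Hspe1, Dnaja1, Bag3, Hsp90aa1, Hspa8, Hsph1 and Ubb were chosen for the text after their values were seen.

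The drop was already present at 48 h, when 12 of the 28 were lower than at 24 h (0.25% of all genes were). Hspa1b held 97, 79.7, 83.3 and 72.1 CPM at 48 h, below every library of 96 h as well (48 h over 24 h, log2 -2.72, adjusted p = 1.85e-08). Dnajb1 likewise held 252 to 276 CPM at 48 h, below its range of 96 h, while Cryab at 48 h (14 to 16.8 CPM) lay within the same span as at 96 h. Hspa1b was the single gene of all 16785 that passed the test of 96 h against 48 h. It was higher at 96 h (0.97 ± 0.099, edgeR adjusted p = 0.00374), so its level was lowest at 48 h. The times are separate sets of libraries whose replicate numbers were not treated as pairs, so these levels are not read as following 1 tumour over time. Dnajb1 missed the threshold for 96 h against 48 h (edgeR adjusted p = 0.162). The fits that left out 1 library called 8 to 11 members lower, and Hspa1b, Dnajb1, Dnajb4, Cryab, Hspd1, Hsp90ab1, Dnaja1 and Bag3 passed in every one. Hspe1 passed in 3 of 8 of those fits, Hsp90aa1 and Hspa8 in 3 each, Ubb in 1 and Hsph1 in 0.

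**Figure D2:**
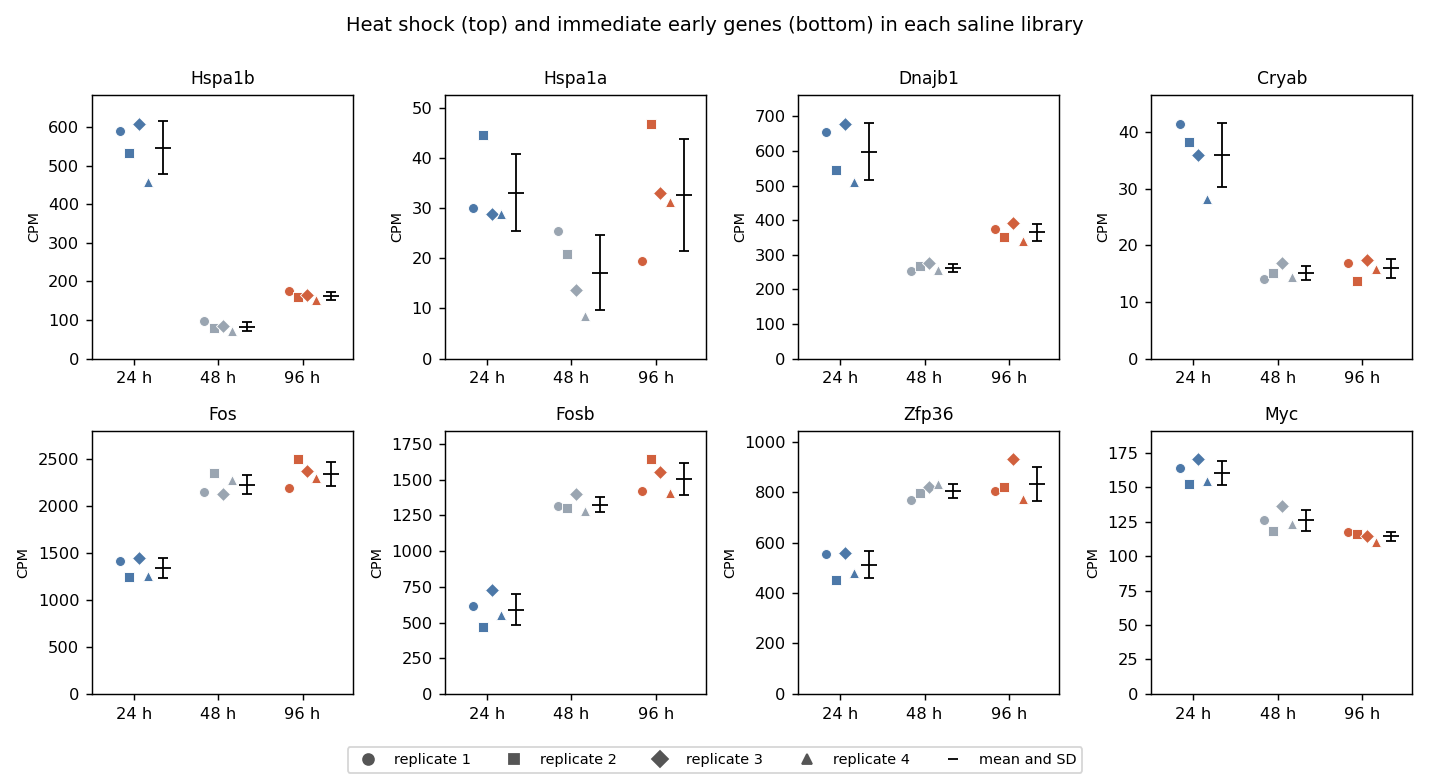
CPM (y axis, from 0) of 4 heat shock genes and 4 immediate early genes in each of the 12 saline libraries by time after treatment (x axis); symbols are replicates, and bars show the mean and SD of 4 libraries. Hspa1b, Dnajb1 and Cryab are high at 24 h only, Hspa1a overlaps between 24 and 96 h, and Fos, Fosb and Zfp36 are lower and Myc higher at 24 h than at both later times.

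Immediate early genes moved the other way. Of 22 members, all tested, 9 rose, 1 fell and 12 did not pass the test, against 2.19% higher among all genes; the median log2 fold change was 0.35. Fos, a subunit of the AP-1 transcription factor (chromosome 12, 85473890 to 85477274 on GRCm38), held 1413, 1240.0, 1443 and 1249 CPM at 24 h and 2194, 2499, 2368 and 2291 CPM at 96 h. The lowest library of 96 h was above the highest of 24 h, and the log2 fold change was 0.81 ± 0.064 (adjusted p = 3.1e-05). Its relative Fosb held 614, 469, 728 and 552 CPM and 1418, 1646, 1553 and 1408 CPM (1.35 ± 0.11, a 2.55-fold rise, adjusted p = 3.12e-05). Junb, a partner of Fos proteins in AP-1, held 652, 489.8, 628 and 527 CPM and 756, 739.7, 865 and 708 CPM (0.42 ± 0.085, adjusted p = 0.0223). The ranges of Fos and Fosb did not come near each other, whereas those of Junb were close without overlapping. Zfp36, which speeds the decay of AU-rich messenger RNAs, held 453 to 560.1 CPM at 24 h and 774 to 932 CPM at 96 h (0.70 ± 0.075, adjusted p = 0.000243). Atf3, a stress-induced transcription factor, held 713 to 892 and 1145 to 1214 CPM (0.53 ± 0.062, adjusted p = 0.000637). Btg2, an antiproliferative gene, held 339 to 432 and 514 to 587 CPM (0.46 ± 0.077, adjusted p = 0.0101). The other members that rose were Klf2, Klf4 and Socs3, with log2 fold changes of 0.85, 0.56 and 0.39; they were chosen for the text after their values were seen.

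Myc, the growth-promoting transcription factor, was the member that fell. It held 164, 152, 171 and 155 CPM at 24 h and 118, 116, 115 and 110.2 CPM at 96 h, with no overlap and little spread at 96 h (-0.49 ± 0.051, adjusted p = 0.000243). At 48 h, 7 members were already higher than at 24 h (0.197% of all genes were) and Myc was lower: Fos held 2149, 2346, 2129 and 2279 CPM and Fosb 1316, 1300.2, 1402 and 1281 CPM at that time. Both lay near their levels of 96 h. The fits without 1 library called 7 to 12 members higher. Myc, Fos, Fosb, Zfp36, Atf3, Btg2, Klf2 and Klf4 passed in every one, while Junb passed in 5 of 8 (adjusted p 0.0129 to 0.0729), being lost without replicate 2 or 4 of 24 h or replicate 3 of 96 h, and Socs3 in 2.

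Transcripts of the mitochondrial chromosome were lower at 96 h. This set was chosen after its values were seen, because CYTB, COX1, ND1 and ND5 were among the 8 genes with the largest loss in CPM. Of 37 genes on that chromosome 22 were tested; 17 of these fell, 5 did not pass the test and none rose, against 2.32% lower among all genes (median log2 fold change -0.65). CYTB, a subunit of respiratory complex III, held 4284, 3782, 3481 and 3938 CPM at 24 h and 3182, 2885, 3114 and 3278 CPM at 96 h (-0.31 ± 0.067, adjusted p = 0.0258). COX1, the catalytic subunit of complex IV, held 3314 to 4037 and 2814 to 3119 CPM (-0.32 ± 0.065, adjusted p = 0.0216). For both, the libraries of the 2 times were close but did not overlap. Of the complex I subunits, ND1 held 2456, 2144, 2024 and 2253 CPM and 1683, 1588, 1609 and 1798 CPM (-0.41 ± 0.064, adjusted p = 0.00714), and ND5 held 1289.6 to 1609 and 1023 to 1223 CPM (-0.34 ± 0.076, adjusted p = 0.0292). The 16S ribosomal RNA mt-Rnr2, also chosen after its values were seen, fell from 9.18 to 12 to 3.75 to 5.01 CPM (-1.36 ± 0.13, adjusted p = 0.000128), and the methionine transfer RNA TrnM from 0.970 to 1.67 to 0.130 to 0.444 CPM (-2.02 ± 0.37, adjusted p = 0.0164). Ribosomal and transfer RNAs of mitochondria were read here in polyA RNA libraries, so their level is not their full abundance. ND1 and mt-Rnr2 passed in all 8 fits without 1 library, COX1 in 6 (lost without replicate 1 or 4 of 24 h), TrnM in 6, ND5 in 3 and CYTB in 2. The number of the 22 that fell was 7 to 17 over those fits and 7 with replicates 1 and 2 of 96 h both left out.

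A pair of nuclear genes that serve translation were among the same 8 losses. Lars2, the leucyl-tRNA synthetase of mitochondria, held 392, 525, 585 and 560.5 CPM at 24 h and 274, 269, 244 and 214 CPM at 96 h (-1.04 ± 0.14, adjusted p = 0.0063). All libraries of 96 h were lower, and those of 48 h lay between (305 to 431 CPM). Eef2, the cytosolic elongation factor that moves the ribosome, held 3041 to 3336 and 2737 to 2828 CPM (-0.19 ± 0.049, adjusted p = 0.0444); it passed in 0 of the 8 fits without 1 library (adjusted p 0.0532 to 0.132). A pair of other loci, chosen after their values were seen, were lower too. AY036118, a locus with ribosomal RNA sequence, held 471, 467, 603 and 576 CPM at 24 h and 370.4, 215, 333 and 267 CPM at 96 h (-0.83 ± 0.17, adjusted p = 0.03), and Mir6236 held 70.5, 95.7, 123 and 113 and 48.8, 49.2, 46.8 and 29.5 CPM (-1.21 ± 0.21, adjusted p = 0.0206). They passed in 1 and 6 of the 8 fits. How far ribosomal RNA in the libraries or RNA quality has a part in the mitochondrial and Lars2 values was not tested.

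Endothelial genes rose. Of 24 endothelial markers, all tested, 19 rose, 1 fell and 4 did not pass the test, against 2.19% higher and 2.32% lower among all genes; the median log2 fold change was 1.37. Cldn5, the tight-junction claudin of endothelium (chromosome 16, 18776847 to 18778262 on GRCm38), held 1.51, 2.84, 2.71 and 2.83 CPM at 24 h and 4.96, 12.8, 7.79 and 10.7 CPM at 96 h (1.86 ± 0.29, adjusted p = 0.00753). Replicate 1 was the lowest library at both times, and the groups did not overlap. Rasip1, needed for vessels to form a lumen, held 7.98, 7.98, 7.65 and 8.33 CPM and 12, 22.9, 18.3 and 16.2 CPM (1.11 ± 0.19, adjusted p = 0.0136). Robo4, a receptor that steadies vessels, held 5.57, 6.42, 5.08 and 5.12 CPM and 10.2, 28.8, 20.2 and 18.4 CPM (1.79 ± 0.30, adjusted p = 0.0139). Pecam1, the general endothelial adhesion molecule CD31, chosen after its values were seen, held 25.4, 24, 27.8 and 21.7 CPM and 40.8, 123, 82.7 and 76.8 CPM (1.70 ± 0.34, adjusted p = 0.0311). In each of these, replicate 1 of 96 h was the lowest and replicate 2 the highest of its group. Esam, an endothelial adhesion molecule, and Emcn, the sialomucin endomucin, rose by 0.91 and 1.83 on the log2 scale (adjusted p = 0.0258 and 0.0293). Cdh5, VE-cadherin, also chosen after its values were seen, was not called: it held 159.5, 111, 169 and 113 CPM at 24 h and 168, 254, 234 and 205 CPM at 96 h, with overlap (0.64 ± 0.17, adjusted p = 0.0592). Ecscr, an endothelial regulator of migration, was the member that fell, from 153 to 174 to 129 to 144 CPM (-0.25 ± 0.052, adjusted p = 0.0257).

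The 15 largest rises under the naming rule went beyond that list. Kcne3, a potassium channel subunit, held 0.688, 0.373, 0.417 and 0.382 CPM at 24 h and 1.86, 3.92, 1.88 and 2.18 CPM at 96 h (2.35 ± 0.36, a 5.10-fold rise, adjusted p = 0.0071). Esm1, a proteoglycan secreted by sprouting endothelial tip cells, held 1.10, 1.19, 1.74 and 0.688 CPM and 3.23, 7.77, 6.94 and 3.68 CPM (2.16 ± 0.37, adjusted p = 0.0133). Shank3, a scaffold protein, held 5.30, 5.22, 5.63 and 4.58 CPM and 11.1, 30, 19.3 and 20.2 CPM (1.94 ± 0.30, adjusted p = 0.0103). All 4 libraries of 96 h exceeded all 4 of 24 h for these 3 genes. The remaining rises were in Apold1 (log2 fold change 2.20), an endothelial immediate response gene; Ct55 (2.10); Col13a1 (2.0), a transmembrane collagen; Ackr2 (1.99), a chemokine decoy receptor of lymphatic endothelium; and Has1 (1.98), a hyaluronan synthase. Gpihbp1 (1.97), which carries lipoprotein lipase across capillary walls, Btnl9 (1.91), Zfp366 (1.87), Clec1a (1.83) and Dipk2b (1.83) completed them with Cldn5 and Emcn. Of the 15, Emcn and Shank3 exceeded 10 CPM in every library of 96 h and Col13a1 in 3 of them. At these depths 1 CPM stands for about 13 to 24 counts.

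How many endothelial genes passed depended on single libraries. Without replicate 1 of 96 h, 22 rose and 1 fell (median 1.59); without replicates 1 and 2 of 96 h, 19 rose. The fits without replicate 3 of 24 h called 13 of the 24 in either direction, and those without replicate 1, 2 or 4 of 24 h or 2, 3 or 4 of 96 h called 2 to 4. A fit of the 8 libraries alone called 7 higher. Cldn5 and Rasip1 passed in all 8 fits without 1 library, Robo4 in 7 (lost without replicate 4 of 24 h), Pecam1 in 2 (adjusted p 0.00434 to 0.0873) and Emcn in 1 (0.00243 to 0.0862). The fall of Ecscr was lost without replicate 1, 2 or 4 of 24 h or replicate 2 or 4 of 96 h. The rise of Esam was lost without replicate 1, 2 or 4 of 24 h or replicate 3 or 4 of 96 h. Of the other large rises, Kcne3, Esm1, Shank3, Dipk2b and Ct55 passed in all 8, Gpihbp1 in 6, Col13a1 in 5, Btnl9 in 4, Has1 in 2 and Apold1, Clec1a, Zfp366 and Ackr2 in 1 each.

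The summed endothelial level was 979, 828, 996 and 784 CPM in replicates 1 to 4 of 24 h, 1036, 1104, 1191 and 960.1 CPM at 48 h and 1089, 1773, 1502 and 1412 CPM at 96 h. The libraries of 96 h lay above all those of 24 h, replicate 1 by the least, and those of 48 h spanned the gap. Fibroblast markers summed to 12556, 12480.4, 10712 and 12668 CPM at 24 h and 10387, 25193, 18436 and 18791 CPM at 96 h, so that replicate 1 of 96 h was below every library of 24 h and the other 3 were above. None of 14 fibroblast markers passed the test (median log2 fold change 0.90), but 12 did without replicate 1 of 96 h. With all 24 libraries in the fit, 2 passed. Decorin, Dcn, held 40.6, 39.8, 44 and 36.1 CPM and 41.8, 84.3, 166 and 84.2 CPM (adjusted p = 0.103, and 0.0225 without replicate 1), and the activated fibroblast protease Fap gave 0.0775 and 0.00296. None of 12 pericyte and smooth muscle markers passed (median 0.71), against 5 without that library. With replicates 1 and 2 of 96 h both left out, 3 fibroblast and no pericyte markers passed. Abcc9, a potassium channel subunit of pericytes, had an adjusted p of 0.112, and 0.0391 without replicate 1 of 96 h. In bulk libraries fewer cells of a type and less RNA per cell cannot be told apart.

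**Figure D3:**
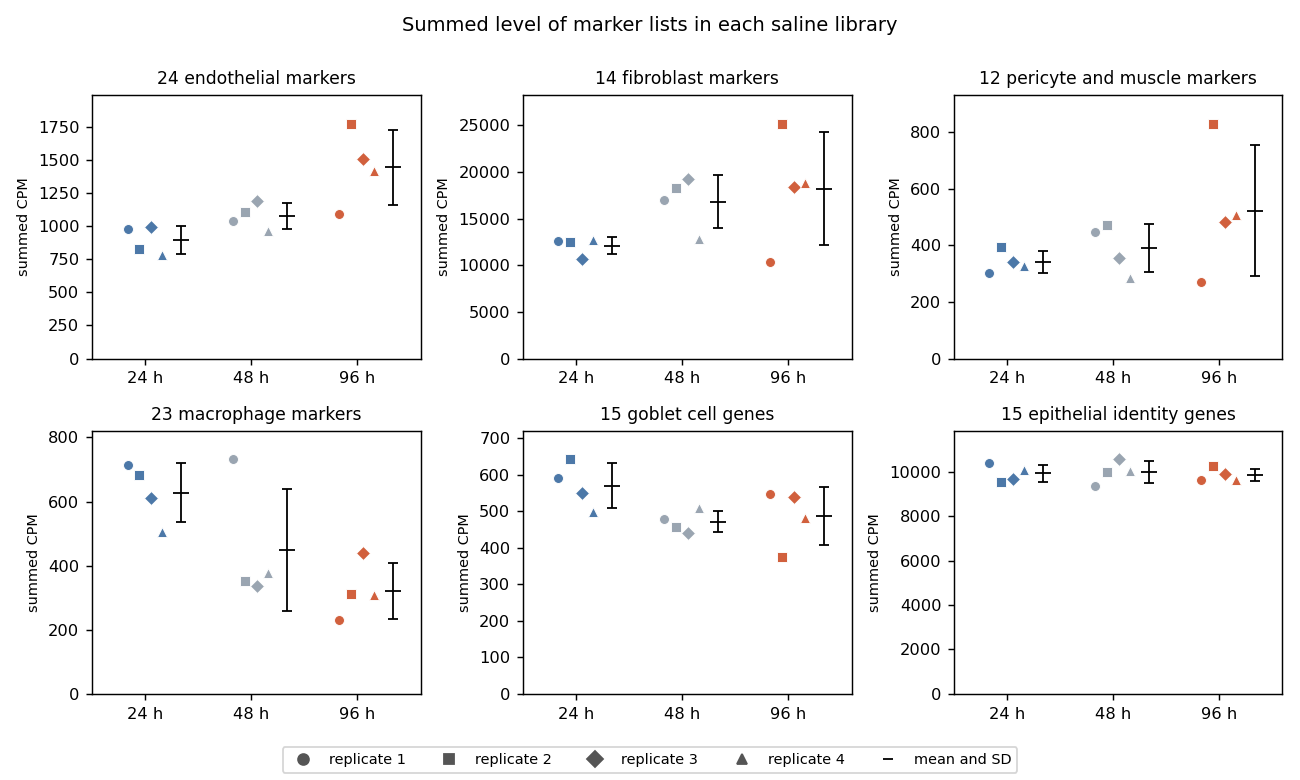
Summed CPM (y axis, from 0) of 6 marker lists in each saline library by time (x axis); symbols are replicates, bars the mean and SD of 4 libraries. Endothelial sums are higher at 96 h with replicate 1 lowest, fibroblast and pericyte sums spread widely at 96 h, macrophage sums are lower at 96 h and high in replicate 1 of 48 h, and the epithelial identity sum stays between 9349 and 10575 CPM.

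Part of the hypoxia genes rose. Of 19 hypoxia and glycolysis genes tested, 8 rose, 11 did not pass the test and none fell, against 2.19% higher among all genes (median log2 fold change 0.41), and in 13 of them the 4 libraries of 96 h lay above the 4 of 24 h, as they did for 4.84% of all genes. Vegfa, the main endothelial growth factor, held 362, 342, 394 and 359 CPM at 24 h and 487, 675, 601 and 509.6 CPM at 96 h (chromosome 17, 46016993 to 46032377 on GRCm38). Each library of 96 h exceeded the highest of 24 h, and the log2 fold change was 0.64 ± 0.092 (adjusted p = 0.00597). Hk2, hexokinase 2, which traps glucose in the cell, held 161, 158, 162 and 171 CPM and 191, 224, 214 and 205 CPM (0.35 ± 0.058, adjusted p = 0.00866). The glucose transporter Slc2a1 held 367 to 419 and 473 to 601 CPM (0.42 ± 0.085, adjusted p = 0.0216). The phosphofructokinase Pfkp and its activator enzyme Pfkfb3 rose by 0.43 and 0.25 on the log2 scale (adjusted p = 0.0243 and 0.0215). Its other members that rose, Egln3, Ero1a and Ndrg1, had log2 fold changes of 0.47, 0.66 and 0.41 and were chosen after their values were seen. Of 17 angiogenic ligand and guidance genes, 3 rose, 14 did not pass the test and none fell, against 2.19% higher among all genes. The 3 were Vegfa, which is on both lists, Apln (1.25 ± 0.25, adjusted p = 0.023), the peptide ligand of sprouting vessels, and Dll4 (0.44 ± 0.092, adjusted p = 0.0243), the Notch ligand of tip cells. This angiogenic list counted 1 to 10 higher over the fits without 1 library. It counted 10 without replicate 1 of 96 h (7.54% of all genes rose there) and 8 with replicates 1 and 2 of 96 h both left out. Apln was lowest at 96 h in replicate 1, with 9.0, 21.3, 18 and 13.5 CPM against 5.42 to 7.72 CPM at 24 h. The endothelial sum was higher at 96 h too, and its part in the rise of Apln and Dll4 was not tested. Vegfa and Hk2 passed in all 8 fits without 1 library. The hypoxia list counted 2 to 13 higher over those fits, and 13 without replicate 1 of 96 h. Slc2a1 passed in 4, Pfkfb3 in 5, Pfkp in 2, and Apln and Dll4 in 3 each. Egln3 and Ndrg1 passed only in the fit without replicate 1 of 96 h. Ero1a passed only there and in the fit without replicate 3 of 24 h. At 48 h no hypoxia gene was called against 24 h (median 0.19).

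Macrophage and monocyte transcripts were lower at 96 h. Of 23 markers, all tested, 6 fell, 17 did not pass the test and none rose, against 2.32% lower among all genes; the median log2 fold change was -1.38. In 17 of the 23 all libraries of 96 h lay below all of 24 h, as they did for 6.89% of all genes. Cx3cr1, the fractalkine receptor of tissue macrophages and monocytes (chromosome 9, 120048683 to 120068296 on GRCm38), held 8.39, 8.43, 7.16 and 6.72 CPM at 24 h and 1.57, 1.74, 2.79 and 2.07 CPM at 96 h (-1.92 ± 0.37, adjusted p = 0.0216). Lyz2, the lysozyme of myeloid cells, held 215, 215, 186 and 157 CPM and 40.3, 57.6, 74.1 and 63.1 CPM (-1.72 ± 0.36, adjusted p = 0.033). Both sets of 4 were well separated. Ctss, the lysosomal protease cathepsin S, held 27.5 to 35 and 8.63 to 12.8 CPM (-1.56 ± 0.36, adjusted p = 0.041). Adgre1, the macrophage antigen F4/80, held 6.04 to 9.91 and 1.86 to 3.50 CPM (-1.59 ± 0.39, adjusted p = 0.0433), and Ccr2, the receptor that recruits monocytes, 1.95 to 3.37 and 0.282 to 0.908 CPM (-2.36 ± 0.59, adjusted p = 0.0433). Other genes of myeloid cells were among the 15 largest falls. C3ar1, a complement receptor, held 5.23, 4.03, 3.82 and 3.36 CPM and 0.767, 1.23, 1.62 and 1.04 CPM (-1.85 ± 0.31, adjusted p = 0.0101). The integrin CD11c, Itgax, fell by 1.83 on the log2 scale (adjusted p = 0.0217), the chemokine Ccl4 by 1.97 (0.0334), the surface receptor Cd84 by 1.74 (0.0213) and the ribonuclease Ear2 by 2.07 (0.0394). H2-Aa, a chain of the class II antigen-presenting molecule, held 16.2, 17.8, 10.4 and 6.11 CPM and 1.86, 1.52, 4.80 and 3.27 CPM (-2.15 ± 0.50, adjusted p = 0.0407), and H2-M2, of the class I family, fell by 2.30 (0.0279). H2-Ab1, the other class II chain, and Cd74, its chaperone, had log2 fold changes of -2.17 and -1.67 and missed the threshold (0.0565 and 0.06).

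The myeloid decline was large in size and weak in its test. The summed marker level was 713, 682, 611 and 505 CPM at 24 h, 229, 312, 441 and 307 CPM at 96 h and 733, 353, 337 and 376 CPM at 48 h. Replicate 1 of 48 h was therefore at the level of 24 h, while the other 3 libraries of 48 h lay within the range of 96 h. The fits without 1 library called 0 to 2 of the 23 lower: 2 without replicate 3 of 24 h and 2 without replicate 1 of 96 h, 1 without replicate 3 of 96 h, and none without any of the others. A fit of the 8 libraries alone, which leaves the 48 h libraries out of the estimate of spread, called 15 lower. C3ar1 passed in all 8 fits without 1 library, Itgax and Cd84 in 5 each, Cx3cr1 and H2-M2 in 3, Lyz2 and Ccl4 in 2, Ear2 in 1 and Ctss, Adgre1, Ccr2 and H2-Aa in none. Of dendritic cell markers 3 of 8 were tested: Itgax fell, and Zbtb46, a transcription factor of dendritic cells, rose (0.63 ± 0.16, adjusted p = 0.0432, passing in 1 of 8 fits). None of 7 neutrophil and none of 7 mast cell markers tested was called.

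Among the secretory lineages of the epithelium, goblet cell genes fell. Of 15 goblet cell genes 12 were tested; 6 fell, 6 did not pass the test and none rose, against 2.32% lower among all genes (median log2 fold change -0.51). Tff3, the trefoil peptide secreted with mucus (chromosome 17, 31125306 to 31129611 on GRCm38), held 4.40, 11.6, 12 and 12.1 CPM at 24 h and 3.59, 2.03, 1.30 and 2.18 CPM at 96 h (-2.09 ± 0.37, adjusted p = 0.0165). Replicate 1 of 24 h was well under the other 3 of its group and still above every library of 96 h. Spink4, a goblet cell protease inhibitor, held 6.33, 25.1, 10.5 and 13.1 CPM and 4.28, 4.43, 3.37 and 3.58 CPM (-1.81 ± 0.34, adjusted p = 0.0225), and Klk1, a kallikrein protease, 2.55, 6.94, 4.24 and 4.13 CPM and 1.98, 1.81, 1.82 and 1.92 CPM (-1.23 ± 0.25, adjusted p = 0.0225). For both, replicate 1 was the lowest and replicate 2 the highest library of 24 h. Agr2, the disulfide isomerase that folds mucin, held 63.4 to 91 and 44.6 to 56.9 CPM (-0.52 ± 0.11, adjusted p = 0.0271). Spdef, the transcription factor of goblet cell maturation, held 22.8 to 26.2 and 16.5 to 21.9 CPM (-0.39 ± 0.087, adjusted p = 0.0284). The last was Ccl6, a chemokine that macrophages also make (-1.21 ± 0.28, adjusted p = 0.0392), chosen after its values were seen. Macrophage markers were lower at 96 h as well, and their part in its fall was not tested. The summed level of the list overlapped between the times, at 498 to 644 and 376 to 547 CPM.

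Paneth cell genes were mixed. Of 11 tested, 3 fell and 1 rose, against 2.32% lower and 2.19% higher among all genes (median -0.35). Mmp7, the protease that activates Paneth cell defensins, held 371, 387, 332 and 379 CPM and 279.8, 276, 322 and 273 CPM (-0.35 ± 0.065, adjusted p = 0.0157). Itln1, a lectin that binds microbial sugars, held 18.5 to 32.6 and 11 to 16.5 CPM (-0.88 ± 0.19, adjusted p = 0.0314). Ang4, an antimicrobial ribonuclease, held 1.10, 9.03, 4.52 and 7.03 CPM and 1.01, 0.290, 0.779 and 1.61 CPM; it was called (-2.48 ± 0.57, adjusted p = 0.0365) although replicate 1 of 24 h lay inside the range of 96 h. Nupr1, a stress-response regulator, was the member that rose (0.40 ± 0.087, adjusted p = 0.0292). Of 11 antimicrobial epithelial genes tested, Reg4, a lectin of secretory cells, fell and Nos2, the inducible nitric oxide synthase, rose, against the same shares of all genes. Reg4 held 29.9, 119, 53.3 and 64.7 CPM and 28, 18.1, 21 and 21 CPM (-1.58 ± 0.36, adjusted p = 0.0396), with replicate 1 of 24 h again close to the libraries of 96 h. Nos2 held 2.82, 2.69, 3.96 and 3.59 CPM and 4.07, 12.4, 10.3 and 7.26 CPM (1.36 ± 0.28, adjusted p = 0.0262). Hpd, an enzyme of tyrosine breakdown and no member of these lists, was the largest fall under the naming rule, from 1.44, 5.15, 1.53 and 1.60 CPM to 0.363, 0.363, 0.324 and 0.415 CPM (-2.69 ± 0.46, adjusted p = 0.0112). Without replicate 2 of 24 h, its highest library, it still passed, as it did in all 8 fits without 1 library.

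The secretory calls rested on few libraries. The fits without 1 library called 0 to 5 goblet cell genes lower, with none left without replicate 4 of 24 h or replicate 4 of 96 h. Tff3 passed in 6 of the 8, Spink4, Mmp7 and Itln1 in 4 each, Klk1 and Agr2 in 3, Spdef, Ang4, Reg4, Nos2 and Nupr1 in 2, and Ccl6 in 0. At 48 h none of these lists had a call against 24 h, though the goblet median was -0.48 and Tff3 held 3.62, 2.16, 4.44 and 4.36 CPM. No call was made among 15 enteroendocrine genes tested (median -0.46), 16 tuft cell genes (0.12), 9 enterocyte genes (-0.08), 14 gastric-type genes (-0.06) or 6 pancreatic-type enzyme genes (-0.39). The pancreatic-type sum ran from 2057 to 3158 CPM at 24 h and was 2084, 1327, 2064 and 2193 CPM at 96 h.

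**Figure D4:**
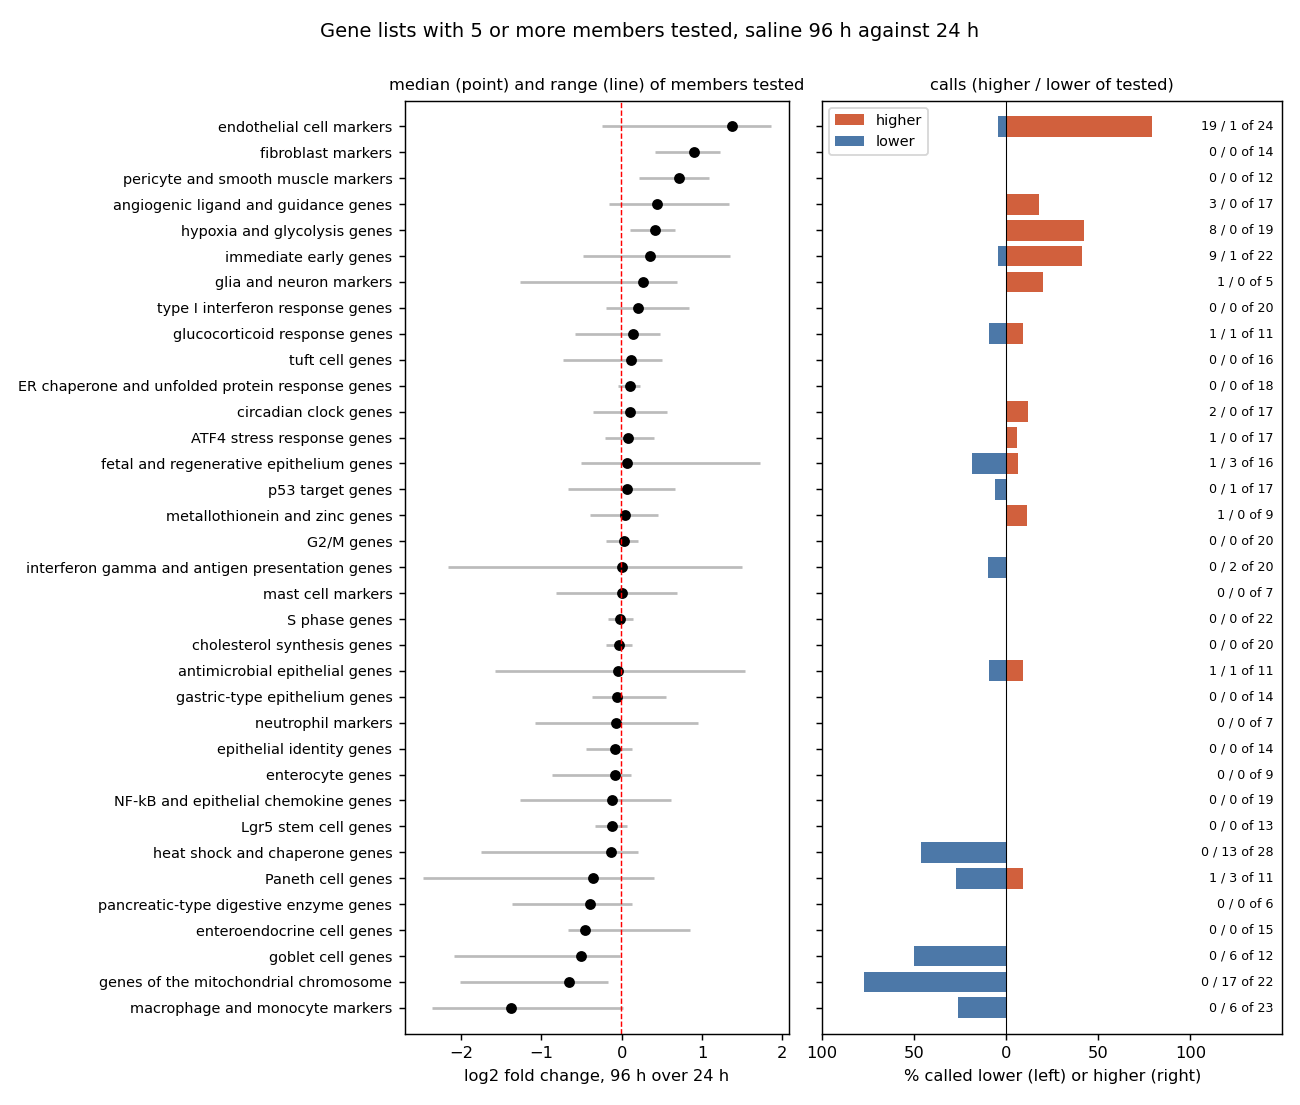
Gene lists with at least 5 members tested. Left, the median (point) and range (line) of members' log2 fold changes, saline 96 h over 24 h, with the median of all genes dashed; right, the percent of members tested that were called higher or lower by edgeR, with the counts. Endothelial markers have the highest median (1.37) and macrophage markers the lowest (-1.38), and the proliferation, stem cell and cholesterol lists lie near 0 with no call.

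Many programmes of the tumour epithelium showed no call between the times. None of 13 Lgr5 stem cell genes tested (-0.12 at the median), 22 S phase genes (-0.02), 20 G2/M genes (0.03), 20 cholesterol synthesis genes (-0.03), 18 ER chaperone and unfolded protein genes (0.11), 20 type I interferon genes (0.21) or 19 NF-kB and chemokine genes (-0.12) passed the test. Without replicate 1 of 96 h, 3 of the 13 stem cell genes fell, as did 1 cholesterol gene (3.58% of all genes fell). In that fit 1 ER chaperone, 1 type I interferon and 2 NF-kB and chemokine genes rose (7.54% of all genes did). No S phase or G2/M gene was called there. A gene that misses the threshold is not shown to be equal: on simulated counts of this size the test found 60% of 1.5-fold and 76% of 2-fold changes. The genes changed there held a mean of at least 1 CPM. No simulated library was shifted as a whole, as replicate 1 of 96 h was, so these shares need not hold for the real libraries. Of 20 interferon gamma and antigen presentation genes 2 fell, against 2.32% lower among all genes: H2-Aa (above) and Cxcl10, a chemokine that attracts T cells. In 6 of the 20 all libraries of 96 h lay below all of 24 h, as they did for 6.89% of all genes. Each fit without 1 library called 1 of the 20 lower. Cxcl10 held 46.8, 42.2, 50.3 and 43.8 CPM at 24 h and 22.9, 19.5, 23.5 and 18.5 CPM at 96 h, about the level of 48 h (17.9 to 25.5 CPM; 96 h over 24 h -1.12 ± 0.11, adjusted p = 0.00019, called in all 8 fits without 1 library). Of 16 fetal and regenerative epithelium genes tested, 3 fell (2.32% of all genes did) and 1 rose (2.19%). Among them, Il1rn and Ccn1 fell (log2 -0.51 and -0.33) and the gap junction gene Gja1 rose (1.72). They passed in 4, 3 and 1 of the 8 fits. Without replicate 1 of 96 h, 5 members of this list rose (7.54% of all genes did) and 3 fell (3.58%). The stress cytokine Gdf15 was the 1 of 17 p53 targets that was called, against 4.51% of all genes (-0.67 ± 0.13, adjusted p = 0.0225, lost in 4 of 8 fits).

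The 48 h saline libraries give the levels at a time between, although their comparison shares the 24 h libraries with the main one. Against 24 h, 33 genes were higher at 48 h (0.197%) and 42 lower (0.25%), together 0.447%. Between 96 h and 48 h, 1 gene, Hspa1b, was higher (0.00596%) and none lower by edgeR's adjusted p, with 1027 genes at an unadjusted p under 0.05. Of the lists above, the heat shock and immediate early lists had 12 and 8 members called at 48 h and the mitochondrial set 7, whereas the endothelial, hypoxia, macrophage and goblet lists had none. Their medians at 48 h over 24 h were 0.70 for endothelial, 0.19 for hypoxia, -0.71 for macrophage and -0.48 for goblet cell genes. Replicate 4 of 48 h lay at -12 on the first principal component, apart from the 7.27 to 15.5 of the other 3, and had the lowest endothelial sum of its time.

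The last comparison asked whether the change from 24 h to 96 h differed between DT and saline libraries, tested as an interaction over all 24 libraries, of 17468 genes. It differed in 2079 genes (11.9%), 713 with the larger log2 change in DT (4.08%) and 1366 with the smaller (7.82%). Secretory genes that fell in saline were among them. A gene named for its saline change carries that change in the difference, so the choice itself moves the difference away from 0, and such values are given as a description. The DT minus saline difference was 2.09 ± 0.52 for Tff3 (adjusted p = 0.0111), 1.82 ± 0.54 for Spink4 (0.0289), 1.57 ± 0.39 for Klk1 (0.0101), 1.73 ± 0.42 for Reg4 (0.0101) and 3.11 ± 0.93 for Ang4 (0.0328). The DT change itself was between 0.00 and 0.63 in these 5 genes, and none of those changes passed the test. They do not stand for all secretory genes. Of the 12 goblet cell genes tested, 3 were lower in DT (20.9% of all genes were) and 1 higher (16.6%), with a median of -0.10. The difference passed in 5 of the 12, each with the larger log2 change in DT (4.08% of all genes). Hpd and Mmp7 also differed, by 2.81 and 0.62 (adjusted p = 0.00436 and 0.0346). The difference was past the threshold for 11 of the 22 mitochondrial genes tested, in each with the higher change in DT (4.08% of all genes). ND5 differed by 0.65, CYTB by 0.59, COX1 by 0.50 and ND1 by 0.46. Lars2 differed by 1.08 (adjusted p = 0.000437), its DT change being 0.04 ± 0.12.

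Of the 28 heat shock genes the difference passed in 4, against 11.9% of all genes: higher in DT for Hspa1b, Dnajb1 and Dnaja1 and lower for Hspa4 (-0.31, adjusted p = 0.00919), an HSP70 nucleotide exchange factor; the list's median was -0.01. Hspa1b fell in both series and by less in DT (-1.11 ± 0.13; difference 0.64, adjusted p = 0.028). Dnajb1 did not pass in DT (0.03 ± 0.11; difference 0.74, adjusted p = 0.00335), while the differences for Cryab, Dnajb4, Hspd1 and Hsp90ab1 missed the threshold (0.0982, 0.199, 0.123 and 0.528). Fos and Fosb rose in DT as well, by 0.94 and 1.48, with differences that missed the threshold (0.455 and 0.648). Vegfa rose by 1.20 in DT, 0.55 more than in saline (adjusted p = 0.0368), and Btg2 by 0.93, 0.47 more (0.0419). None of the 24 endothelial or 23 macrophage markers had a difference past the threshold, as 11.9% of all genes did. In DT, the log2 change was -2.66 for Cx3cr1, -1.79 for Lyz2 and 1.10 for Pecam1. Esm1 was the endothelial gene of the text that differed (-1.86, adjusted p = 0.0349). The S phase and G2/M lists, with no call in saline, differed in 22 of 22 and 18 of 20 members. All of these had the lower change in DT, as 7.82% of all genes did. Among the genes with the smallest p of this test were Nr1d1 (-2.06), a repressor of the circadian clock, Mcm10 (-1.26), a DNA replication factor, Ppp1r10 (-1.26), Oas1g (-2.52) and Oas3 (-3.23), interferon-induced RNA sensors, Nop56 (-0.89), a nucleolar protein, and Ltbp4 (1.04), a matrix protein. None of these 7 was called in saline.

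**Figure D5:**
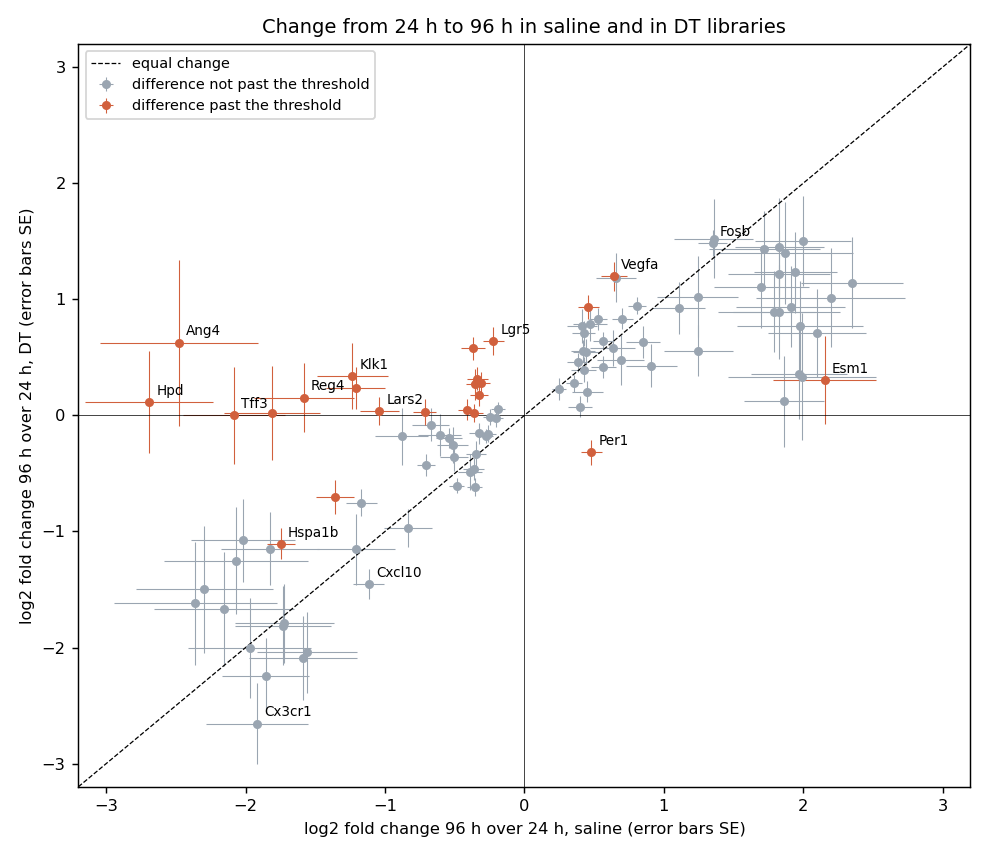
Log2 fold change of 96 h over 24 h in saline (x axis, fit of 12 saline libraries) and in DT (y axis, fit of 24 libraries) for Lgr5 and the called genes named in the text; bars are SE and the dashed line marks equal change. Genes whose difference passed the threshold are coloured: Tff3, Reg4, Klk1, Ang4 and Hpd fell in saline and lie near or above 0 in DT, while myeloid genes lie low on both axes.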

How the data were processed

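Sorted cells gave polyA RNA, extracted with an RNeasy Micro kit, per the labels' protocols. Per the file headers, the authors deposited 2 values a gene and library, a count of uniquely aligned reads and an RPKM normalized with size factors; the RPKM served here only to recover their size factors. GSNAP and GRCm38 are named in the submitters' processing notes, and whether strand was used is not stated in the sources used here. Of 36528 gene IDs 31049 (85.0%) matched RefSeq symbols of GRCm38.p6. The unmatched held 1.29% to 1.52% of counts and stayed in.

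Counts of the 12 saline libraries were fitted with edgeR 4.0.16 (R 4.3.3; TMM, filterByExpr, robust quasi-likelihood test, 1 mean per group, 9 residual degrees of freedom), with two-sided p adjusted by Benjamini-Hochberg over 16785 genes and a threshold of 0.05. SE is the log2 fold change over the square root of F. The DT difference used all 24 libraries. Replicates differed by a chi-square of at least 4.24 per degree of freedom, so none was a copy. On simulated counts of 16651 genes with 200 changed, 12 of 148 calls were false and the median absolute log2 error was 0.084. Among called genes with a proper symbol, a mean of at least 1 CPM at 24 or 96 h and no overlap between the libraries of these times, the naming rule took the 15 largest log2 changes and 8 largest CPM differences each way. It added the 5 tested members with the smallest p of each of 39 lists, Lgr5, and the 8 smallest p of the DT difference. Not all that it named are printed, and some results are not reported here. The comparison and lists were chosen with earlier results of these data known, and lists were described without a set test. Alternatives were RLE and the authors' scaling, 2 other filters, other sets of libraries, a replicate block, DESeq2 1.42.0, limma 3.58.1 voom, thinning and each library left out.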

Additional observations from a re-analysis of the deposited data

Results flagged for a closer look

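Within groups of 4 libraries, 32 of 465 sets of values (6.88%) had a highest or lowest library whose gap to its neighbour took up most of the group's range; chance marks about 1 in 20 such sets. The sets were the saline CPM of each gene in the text and the summed CPM of each list, at 24, 48 and 96 h.

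Replicate 1 of 48 h was the highest of its time for myeloid transcripts: Cx3cr1 (8.97 CPM), Lyz2 (195), Ctss (37.3), Adgre1 (8.72), Ccl4 (5.55), H2-Aa (10.1), H2-M2 (3.37), H2-Ab1 (12.5), Cd74 (92.7), the summed macrophage and monocyte markers (733) and the summed neutrophil markers (18.1). In the other 3 libraries of 48 h the macrophage sum was 337, 353 and 376 CPM. The same library had the lowest summed G2/M level of its time (588 CPM, against 646 to 647). These genes largely mark the same cells, so they are not independent.

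At 24 h, replicate 1 was the lowest library for Cldn5 (1.51 CPM), Tff3 (4.40) and Mcm10 (12.8). Replicate 2 was the highest for Hspa1a (44.6), Hpd (5.15) and Clps (7.09), and the lowest for Egln3 (185) and the summed hypoxia and glycolysis genes (3759). Replicate 3 had the highest clock sum (960.2) and the lowest fibroblast sum (10712), and replicate 4 the highest G2/M sum (637). Without replicate 2 of 24 h, the fall of Hpd kept its call.

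At 48 h, replicate 3 was the highest library for Has1 (3.30 CPM) and the lowest for the summed pancreatic-type enzymes (1237). At 96 h, replicate 1 was the highest for Gdf15 (32.0), replicate 2 the highest for Kcne3 (3.92) and the lowest for the pancreatic-type sum (1327), replicate 3 the highest for Mmp7 (322) and for the interferon gamma and antigen presentation sum (1336), and replicate 4 the lowest for Agr2 (44.6) and Mir6236 (29.5).

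The change from 24 h to 96 h differed between DT and saline libraries in 32 of the 120 genes named in the text (edgeR interaction test, adjusted p under 0.05). Most were named for their saline change, which is part of this difference, so the share is not set against that of all genes. The 7 named for the smallest p of this test are among them. Differences are DT minus saline on the log2 scale. In secretory and digestive genes they were 2.09 for Tff3, 1.82 for Spink4, 1.57 for Klk1, 1.73 for Reg4, 3.11 for Ang4, 0.62 for Mmp7, 2.81 for Hpd and 2.52 for Clps, a cofactor of pancreatic lipase that was not called in saline. For Lgr5 the difference was 0.86. For chaperones they were 0.64 for Hspa1b, 0.74 for Dnajb1, 0.38 for Dnaja1 and -0.31 for Hspa4. For mitochondrial genes, Lars2 and Mir6236 they were 0.59 for CYTB, 0.50 for COX1, 0.46 for ND1, 0.65 for ND5, 0.66 for mt-Rnr2, 1.08 for Lars2 and 1.44 for Mir6236. Btg2 differed by 0.47, Vegfa by 0.55, Cdkn1c by 0.94, Per1 by -0.80 and Esm1 by -1.86. The genes named for the smallest p differed by 1.04 (Ltbp4), -1.26 (Mcm10), -0.89 (Nop56), -2.06 (Nr1d1), -2.52 (Oas1g), -3.23 (Oas3) and -1.26 (Ppp1r10).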

How the results depend on the processing

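None of the 120 genes named in the text was called in the opposite direction under any alternative, and all 757 calls had the same sign in each. The number of calls was less stable. Against 367 higher and 390 lower, a fit of only the 8 libraries called 155 and 167, DESeq2 884 and 606, and limma voom 159 higher. Fewer were lower with no low-count filter (238) and with all 24 libraries in the fit (198). With 1 library left out the counts were 49 to 1279 higher and 51 to 607 lower. With replicates 1 and 2 of 96 h both left out, an alternative chosen after seeing the data, they were 677 and 133; the cause of these shifts was not tested, beyond the fewer libraries in some fits. Of the 100 genes of the text that were called, 33 passed in all 8 fits without 1 library and under all 10 planned other settings. Median-of-ratios scaling, the authors' size factors, a floor of 1 CPM and thinning each library to 13126002 counts each ended the call of 1 to 7 of the 100. Leaving out the low-count filter ended 25, fitting only the 8 libraries 33, all 24 libraries 19 and limma voom 18. Some genes of the text that were not called passed with no library left out. Cdh5, Fap, Dcn, H2-Ab1 and Cd74 did so with all 24 libraries and in DESeq2. Abcc9, Clps and Epcam did so in DESeq2 only. Limma voom added Cdh5, H2-Ab1 and Cd74, and the fit of only the 8 libraries added H2-Ab1 and Cd74. Replicate numbers were not treated as pairs. Deviations of same-numbered libraries of 24 h and 96 h correlated across genes at 0.006 to 0.185, and not every library correlated best with its own number. With 4 libraries in each group this does not exclude a pairing. A replicate block gave 434 higher and 377 lower and ended 13 of the 100 calls, those of Lyz2, Ctss, Adgre1, Ccr2, Ccl4, H2-Aa, Ccl6, Ang4, Reg4, Eef2, Apold1, Ret and Xist; for the DT and saline difference it gave 1850 genes against 2079, where the other alternatives gave 1577 to 2434. Depth limits the genes under 1 CPM, about 13 counts in the smallest library.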

Other observations

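A pair of clock-linked genes rose, Per1 and Bhlhe40. Per1, a core repressor of the circadian clock that glucocorticoids also induce, held 45, 46.1, 59.3 and 48.4 CPM at 24 h and 66.1, 72.7, 70.5 and 68.5 CPM at 96 h, without overlap (0.48 ± 0.076, edgeR adjusted p = 0.00714). Bhlhe40, a clock repressor that hypoxia also induces, held 314, 296, 299 and 296 CPM and 379, 524, 417 and 464 CPM (0.57 ± 0.091, adjusted p = 0.00866). Both passed in all 8 fits without 1 library and both were already higher at 48 h (76.6 to 84.2 and 433 to 535 CPM). The other 15 clock genes tested were not called (2.19% of all genes were higher), and the hour of day of sampling is not given in the labels. Among glucocorticoid response genes, Cdkn1c, an inhibitor of the cell cycle, fell (-0.37 ± 0.088, adjusted p = 0.0363, passing in 1 of 8 fits). The zinc transporter Slc39a14 (0.45 ± 0.11, adjusted p = 0.0392) and the receptor Ret (0.69 ± 0.17, adjusted p = 0.0369) rose, passing in 1 and 2 of those fits.

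Xist, the RNA that coats the inactive X chromosome in female cells, held 32.1, 34.8, 44.9 and 40 CPM at 24 h, 88.6, 69.4, 77.3 and 47.7 CPM at 48 h and 51, 136, 82.1 and 91.9 CPM at 96 h. The 2 compared times did not overlap, and the rise of 1.24 ± 0.29 (adjusted p = 0.0444) passed in 1 of the 8 fits without 1 library. The 4 Y-linked genes of the list stayed under 1 CPM in all 8 libraries. As with vessel genes, replicate 1 was the lowest and replicate 2 the highest library of 96 h; what cells the Xist counts came from was not tested.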
